A study of Mus musculus with 6 samples.

Results

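B lineage genes were followed in sorted hematopoietic stem cells (HSC). The set holds 9 genes, Cd79a, Cd79b, Ms4a1, Ebf1, Pax5, Vpreb1, Igll1, Rag1 and Blnk, of 31791 gene names on the arrays, and 11 of 39429 probes carry one of these names. The genes were chosen by name with the genotype results of these same arrays known, so their differences between genotypes are given as a description. All 9 genes had a probe detected well above background on 3 or more of the 6 arrays, which put 10 of the 11 probes into the fit across all probes.

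LSK-SLAM cells (Lin- c-Kit+ Sca-1+ CD150+ CD48-) are a marrow population enriched for HSC. They were isolated from secondary (2T) recipients of WT or p190-B-/- cells, where p190-B is a GTPase activating protein encoded by Arhgap5, and their RNA was hybridised in 1 colour to 6 whole mouse Agilent arrays, of which 3 were 2T-WT and 3 2T-p190-B-/-. Donor cells of both groups were CD45.2+ fetal liver cells of littermates, from a line backcrossed to C57BL/6J, transplanted with CD45.1+ competitor marrow into lethally irradiated CD45.1+ congenic mice whose marrow was then passed to irradiated secondary recipients. No CD45.2 gate and no ages are named for the array samples, so whether the sorted cells were all of donor origin is not stated. Each group was reported as 3 independent mice sorted at independent times, but whether an array is 1 mouse or a pool is not in the labels, and p-values then measure the spread between these arrays. Lineage positive cells were first depleted with beads, and the stain for the Lin- gate held antibodies to B220 on B cells, to CD3 and CD5 on T cells, to Ter119 on red cells and to CD11b and Gr1 on myeloid cells.

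B cells arise from HSC through progenitors that commit to the lineage under the transcription factors Ebf1 and Pax5. Rag1 is part of the recombinase that cuts immunoglobulin genes, and the heavy chain that results is first carried to the surface by the surrogate light chain, made of Vpreb1 and Igll1, together with the signalling subunits Cd79a and Cd79b. Blnk is the adaptor that passes the signal of this receptor on, and Ms4a1 encodes CD20, a surface protein of mature B cells.

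The probes behind the clearest values below are shown here as the arrays carry them, because each level is the dye bound to 1 such stretch of a transcript. Coordinates are those of the probe annotation, build mm9, and the sequences are written 5′ to 3′ in the sense of the transcript. The Cd79a probe A_66_P120987 (chr7:25684357-25684614) has 60 bases over a span of 258, so it crosses a splice junction. The first Pax5 probe, A_51_P122855 (chr4:44550354-44582908), has 60 bases over 32555, while the second, A_55_P2126394 (chr4:44658421-44658480), is 1 unbroken stretch, as is the Igll1 probe A_52_P493519 (chr16:16861104-16861163). Which exon or untranslated region a probe lies in was not annotated here.
Cd79a probe: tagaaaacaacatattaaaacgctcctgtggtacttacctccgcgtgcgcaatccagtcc
Pax5 first probe: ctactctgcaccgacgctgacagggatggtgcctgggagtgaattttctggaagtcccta
Pax5 second probe: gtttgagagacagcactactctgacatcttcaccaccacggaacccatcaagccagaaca
Igll1 probe: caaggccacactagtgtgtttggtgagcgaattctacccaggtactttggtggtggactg

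Levels are given as the log2 of the processed signal over the array's 75th percentile, so that 0 is a spot as bright as the 75th percentile of its array. In what follows, 3 values of a group stand in the order of its replicates 1, 2 and 3. This percentile was 125, 227 and 53.9 intensity units in 2T-WT against 385, 321 and 252 in 2T-p190-B-/-. The dimmest array, 2T-WT replicate 3, also had the highest floor: its lowest level well above background was -2.26, against -4.84 to -2.69 on the other arrays. Scaling this way left the median of all tested probes at -0.33 between genotypes (2T-p190-B-/- minus 2T-WT), and 60.8% of them were lower in 2T-p190-B-/-. Without scaling every difference moves by the same amount, and the median of all probes becomes 1.12. No spot was saturated. The single Arhgap5 probe was well above background on 1 array, 2T-p190-B-/- replicate 2 (-2.71), and lay between -6.01 and -4.44 on the others, so it does not check the genotype labels.

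Cd79a had by far the widest range of the set. It stood at -3.80, -3.35 and 9.47 in 2T-WT against -4.89, -3.40 and -1.65 in 2T-p190-B-/-. Only 2T-WT replicates 2 and 3 plus replicate 3 of 2T-p190-B-/- were well above background. A single array, 2T-WT replicate 3, was high, 2231-fold above the next one, and the other 5 arrays of both genotypes overlapped. The same spot read 38361.2 intensity units there before any scaling, against 8.9 to 80.5 on the other arrays, so the array was also the high one without scaling. The 2231-fold is between scaled levels and is larger than the unscaled one. The 75th percentile it was divided by was 53.9 on this array and 252 on the next, 2T-p190-B-/- replicate 3.

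The spot itself was regular on 2T-WT replicate 3. Its mean pixel brightness was 40079.6 and its median 39382, with an SD of 2584.37 over 64 pixels, and it was neither saturated nor marked as an outlier. The 24 spots around it had a median processed signal of 10.47 and a highest of 13654.3, where Cd79a read 38361.2, and 386 of the 43020 non-control spots of the array were brighter. Cd79a led the next array by 11.12 on the scaled log2 levels. Of 24873 tested probes with a value on every array, 1 led by as much, namely Cd79a itself. On these levels 17 probes led by 8 or more on any array, 6 of them on 2T-WT replicate 3.

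**Figure D1:**
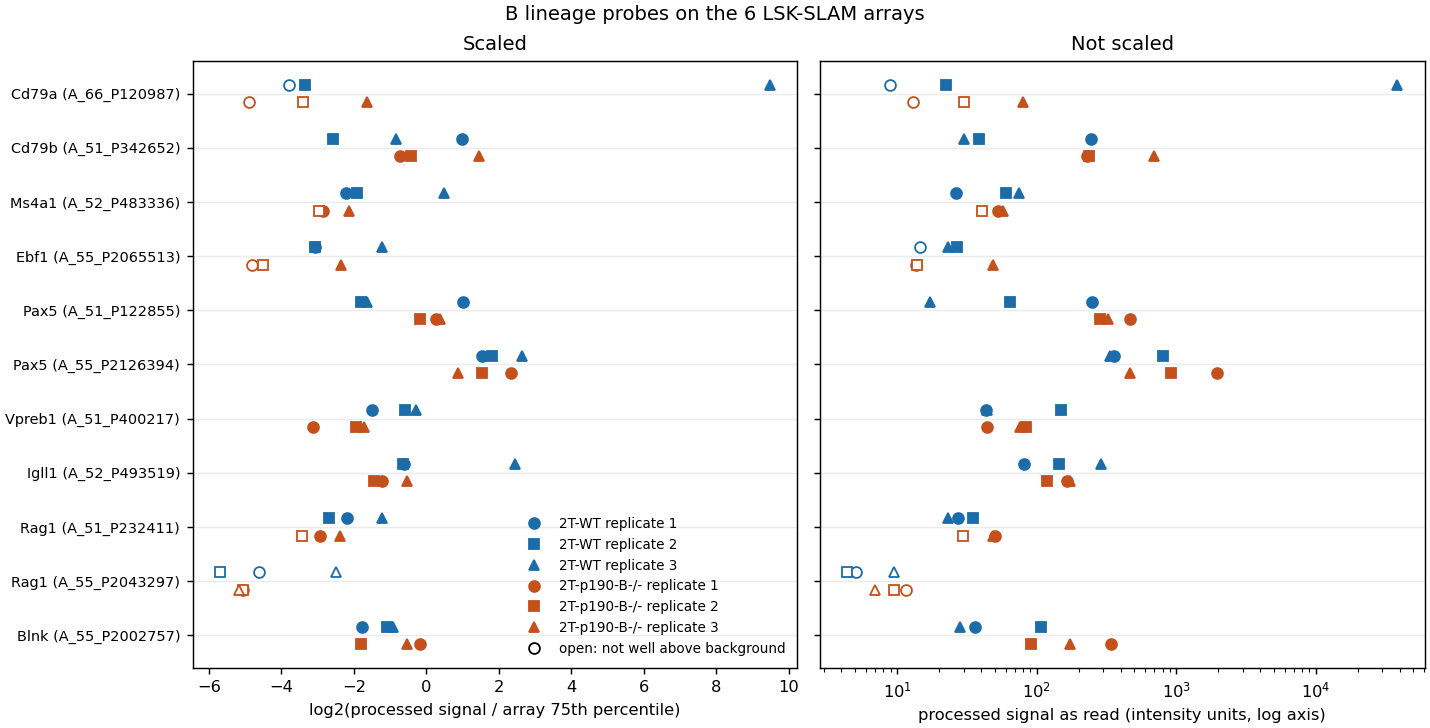
Level of each B lineage probe on the 6 arrays, scaled as log2 of the processed signal over the array's 75th percentile (left) and as the processed signal in intensity units on a log axis (right). Colours mark genotype, shapes the replicate number, and open symbols spots not well above background; Cd79a on 2T-WT replicate 3 lies at 9.47 scaled and 38361.2 not scaled, far from the other arrays.

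The mean of Cd79a was 0.78 ± 7.54 (SD, n = 3) in 2T-WT and -3.31 ± 1.62 in 2T-p190-B-/-, a difference of -4.09 with a standard error of 3.19. The difference came from 1 array: without 2T-WT replicate 3 it was 0.26. Cd79b, the partner of Cd79a in the receptor, was well above background on all 6 arrays and did not share this pattern. Its levels were 0.97, -2.57 and -0.83 in 2T-WT against -0.73, -0.43 and 1.45 in 2T-p190-B-/-. The highest array was 2T-p190-B-/- replicate 3, the groups overlapped, and the difference was 0.90 ± 1.07 (standard error). It ran from 0.026 without 2T-WT replicate 2 to 1.79 without 2T-WT replicate 1.

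The surrogate light chain genes lie close together on chromosome 16 and both were measured on every array. Vpreb1 was at -1.51, -0.61 and -0.29 in 2T-WT against -3.12, -1.93 and -1.72 in 2T-p190-B-/-. Every 2T-WT array was thus above every 2T-p190-B-/- array, with group means of -0.81 ± 0.63 and -2.26 ± 0.76 (SD, n = 3 each), a difference of -1.45 ± 0.75 (standard error). Without 2T-WT replicate 3 it was -1.20. The groups overlapped with the percentile taken over probes detected on every array, and also before scaling, with 43.6, 149.5 and 44.0 intensity units in 2T-WT and 44.3, 83.9 and 76.7 in 2T-p190-B-/-.

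Igll1 was at -0.61, -0.66 and 2.43 in 2T-WT against -1.23, -1.44 and -0.54 in 2T-p190-B-/-. As with Cd79a, 2T-WT replicate 3 was the high array, 7.82-fold above the next, and the groups overlapped. Its probe was also brightest there before scaling, at 291.0 intensity units against 81.5 to 174.0 elsewhere. The difference of -1.46 ± 0.97 became -0.43 without that array, the smallest with any 1 array left out, and -1.98 without 2T-WT replicate 2, the largest.

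Of the transcription factors, Ebf1, which opens the B cell programme in progenitors, was near the floor. Its levels were -3.09, -3.08 and -1.23 in 2T-WT against -4.81, -4.52 and -2.37 in 2T-p190-B-/-, well above background only on 2T-WT replicates 2 and 3 plus replicate 3 of 2T-p190-B-/-. These are the same 3 arrays on which Cd79a was detected, and the groups overlapped. The difference was -1.43 ± 0.94, and ran from -2.20 (leaving out 2T-p190-B-/- replicate 3) to -0.81 (leaving out 2T-WT replicate 3).

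Pax5, which holds B cells to their lineage, was measured on every array by both of its probes, and the probes did not move together. The first probe read 1.01, -1.81 and -1.64 in 2T-WT against 0.28, -0.17 and 0.37 in 2T-p190-B-/-, a difference of 0.97 ± 0.91. The second, brighter on average and taken to stand for the gene, read 1.52, 1.82 and 2.63 in 2T-WT against 2.35, 1.52 and 0.88 in 2T-p190-B-/-, a difference of -0.41 ± 0.73. The groups overlapped on both, and 2T-WT replicate 3 was the highest array on the second probe but among the lowest on the first. With 1 array left out the first ran from 0.48 (without 2T-WT replicate 2) to 1.89 (without 2T-WT replicate 1), and the second from -0.79 to -0.056 (without replicates 1 and 3 of 2T-p190-B-/-). As shown above, the sequences come from different stretches of the gene.

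Rag1 also had a pair of probes, of which A_55_P2043297 was well above background on no array. The other, A_51_P232411, read -2.18, -2.69 and -1.21 in 2T-WT against -2.94, -3.42 and -2.38 in 2T-p190-B-/- and was above background on 5 of the 6 arrays. 2T-WT replicate 3 was again highest, the groups overlapped, and the difference was -0.88 ± 0.73, or -0.48 without that array. Before scaling its highest array was another, 2T-p190-B-/- replicate 1 at 50.1 intensity units, with 23.3 on 2T-WT replicate 3.

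Blnk, the adaptor, was at -1.79, -1.08 and -0.93 in 2T-WT against -0.18, -1.81 and -0.53 in 2T-p190-B-/-. All 6 values were well above background, the groups overlapped, and the difference was 0.43 ± 0.74. It ran from 0.097 without 2T-p190-B-/- replicate 1 to 0.92 without 2T-p190-B-/- replicate 2, and was 0.013 with slide as a block. Ms4a1 was at -2.23, -1.91 and 0.47 in 2T-WT against -2.86, -2.98 and -2.13 in 2T-p190-B-/-. All arrays but 2T-p190-B-/- replicate 2 were well above background. On the scaled levels 2T-WT replicate 3 stood 5.23-fold above the next array, which left a difference of -1.43 ± 0.89 that became -0.58 without it. Before scaling the lead was smaller, with 74.8 intensity units on 2T-WT replicate 3 against 26.6 to 60.3 elsewhere.

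2T-WT replicate 3 was the highest array for 7 of the 10 member probes tested, where it was the highest for 32.7% of all probes with a value on every array. Before scaling it was the highest for 3 of the 10, Cd79a, Ms4a1 and Igll1, against 4.36% of all probes. The part of this array's low overall brightness in the scaled values of the set was not tested.

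Across the 9 genes, each by its brightest probe, 7 were lower in 2T-p190-B-/- and 2 were higher (3 lower and 6 higher without scaling), and the median difference was -1.43. Of all probes 60.8% were lower with scaling and 13.7% without it. The median of all probes was -0.33, and 7 of the 9 genes lay below it. No member passed the fit across all probes: limma's adjusted p ran from 0.637 to 0.863 over the 10 probes, 0 of them had an unadjusted p below 0.05, and of all 25160 probes 0 passed after adjustment (0%, smallest adjusted p 0.0721) and 1654 before it (6.57%). Of the 10 probes, 1 had groups that did not overlap, Vpreb1, which was lower in 2T-p190-B-/-. Over all probes 11.5% were lower in 2T-p190-B-/- without overlap and 4.47% were higher, so 1 probe of 10 lies near the background. With 3 arrays a group, the smallest p that an exact permutation test (two-sided) allows is 0.1.

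**Figure D2:**
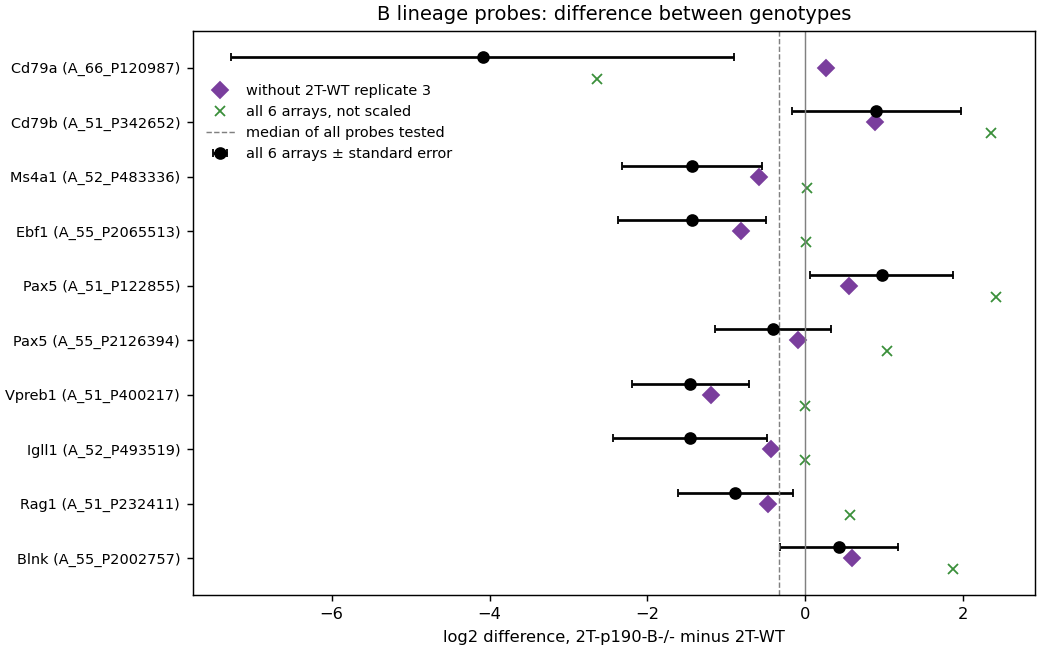
Log2 difference between 2T-p190-B-/- and 2T-WT for the 10 B lineage probes tested. Black points and bars are the estimate and standard error over all 6 arrays, diamonds the estimate without 2T-WT replicate 3, crosses the estimate from signals not scaled between arrays, and the dashed line the median of all probes (-0.33); the Cd79a estimate moves from -4.09 to 0.26 when that array is left out.

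Leaving out 2T-WT replicate 3 moved the median of the 9 genes from -1.43 to -0.43, while that of all probes became -0.24. Among the 5 genes whose standing probe was above background on every array (Cd79b, Pax5, Vpreb1, Igll1 and Blnk), 3 were lower and the median was -0.41, where that of all probes detected on every array was -0.44 and 2 of the 5 lay below it. The arrays lay on 3 slides, and only slide 2 held both genotypes (2T-WT replicates 2 and 3 with replicates 1 and 2 of 2T-p190-B-/-). With slide as a block, which leaves the difference within slide 2, the median was -2.08 and Cd79a was at -7.21, the high array being on that slide. Signals that were not scaled between arrays gave a median of 0.02, where that of all probes was 1.12. Relative to the median of all probes under the same setting the set lay at -1.10 with all 6 arrays, with or without scaling. It lay at -0.19 without 2T-WT replicate 3, 0.04 with probes detected on every array, -0.73 with normexp background correction and -1.60 with slide as a block.

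Other genes of the B lineage lay on both sides of 0. Of 53 genes named by role, 3 had no probe, 7 were above background on no array and 37 were measured. Of these 37, 19 were lower in 2T-p190-B-/- and 18 higher with a median of -0.03. Without scaling between arrays 0 were lower and the median was 1.42, where 13.7% of all probes were lower and their median was 1.12. As counted against the median of all probes, 14 of the 37 lay below it. After adjustment 0 passed with limma, 1 had an unadjusted p below 0.05 (6.57% over all probes), while without overlap between groups 3 genes were lower in 2T-p190-B-/- (11.5% over all probes) and 2 were higher (4.47%).

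Several genes of early B cells were not detected. Rag2, the recombinase partner of Rag1, was well above background on no array with either of its probes, and the same held for Il7r, the receptor chain that early B cell progenitors need. Dntt, which adds bases at immunoglobulin joints and is already active in lymphoid progenitors, was measured on every array, at 1.21, 2.40 and 1.66 in 2T-WT against 1.24, 1.96 and 5.04 in 2T-p190-B-/-. One array, 2T-p190-B-/- replicate 3, was high and the groups overlapped.

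Of the genes near the receptor, Vpreb2, a close relative of Vpreb1, had levels of 2.48, 4.26 and 3.45 in 2T-WT against 3.00, 3.52 and 3.67 in 2T-p190-B-/-, a difference of 0.00 ± 0.74. Transcripts of Vpreb1 and Vpreb2 are alike, and how far their probes cross-hybridise was not tested. Vpreb3 was above background on 4 arrays, at -4.21, -0.42 and -4.10 in 2T-WT against -0.50, -0.80 and -1.63 in 2T-p190-B-/-. Ighm, the heavy chain of IgM, read 2.52, 0.68 and 2.42 in 2T-WT against 0.54, 0.22 and 1.03 in 2T-p190-B-/-, with groups that overlapped between 0.68 and 1.03.

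Surface proteins split about evenly, with 6 of 13 measured genes lower and 7 higher. Cd22, a lectin that dampens receptor signals, was by its brighter probe at 7.11, 6.93 and 8.36 in 2T-WT against 6.24, 6.44 and 6.77 in 2T-p190-B-/- (difference -0.99 ± 0.71). Its other probe, well above background on all 6 arrays, overlapped and went the other way (2.05 ± 1.58). That probe read -0.17, 0.36 and -1.22 in 2T-WT against -0.87, 0.30 and 5.69 in 2T-p190-B-/-. Ly6d, a marker of B-biased lymphoid progenitors, was lower without overlap, as was the brighter Cd22 probe (Ly6d -0.68 ± 0.64). Cr2, the complement receptor of mature B cells, had a difference of -1.31 ± 0.87 with 2T-WT replicate 3 highest at 8.12, while Fcer2a, the low affinity IgE receptor, read 1.34, -0.70 and 0.33 in 2T-WT against 1.90, 2.76 and 0.80 in 2T-p190-B-/-. Cd37, Cd72, Ptprc (which encodes CD45 and its B220 form), Tnfrsf13b and Cd93 had differences between -0.29 and 0.84 by the brightest probe of each, all with overlapping groups. The dimmer Tnfrsf13b probe, detected on all 6 arrays, was at -0.42 ± 0.78 with overlap, where the brighter was at 0.60 ± 0.97.

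Of 12 transcription factors measured, 7 were lower and 5 higher. Tcf3, which encodes the E2A proteins that act with Ebf1, had a difference of -1.08 ± 0.72, and Prdm1, the factor of plasma cells, one of -1.44 ± 0.86, with 2T-WT replicate 3 again highest at 6.48. Ikzf1, Ikzf3, Pou2af1, Pou2f2, Irf8, Bcl11a and Bcl6 lay between -0.45 and 0.30. Bach2, a repressor that holds back plasma cell differentiation, had the lowest p of the wider list and is named after its values were seen: it read -4.52, -2.72 and -1.81 in 2T-WT against 2.08, 1.00 and 0.58 in 2T-p190-B-/-. It was above background on 2 of the 3 2T-WT arrays, so that the 2T-WT mean holds a value not well above background. It was higher in all 3 2T-p190-B-/- arrays, with a fitted difference of 4.24 ± 0.90, but missed the threshold after adjustment over all probes (limma, unadjusted p = 0.00145, adjusted p = 0.462). Its other probe was well above background on no array.

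Among signalling genes 5 of 8 measured were lower. Btk, the kinase that acts with Blnk below the receptor, was at 1.87, 0.61 and 1.54 in 2T-WT against -0.29, -0.03 and 0.15 in 2T-p190-B-/-. The Src family kinase Blk was at -1.08, -1.14 and -1.38 in 2T-WT against -1.05, -0.28 and -0.25 in 2T-p190-B-/-. Neither overlapped, Btk being lower (-1.39 ± 0.69) and Blk higher (0.68 ± 0.66) in 2T-p190-B-/-. Pik3ap1, Pik3cd and Dok3 lay between -0.95 and 0.01 by the brightest probe of each, with overlap. A dimmer Pik3cd probe, detected on all 6 arrays, was at -1.01 ± 0.75, also with overlap.

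**Figure D3:**
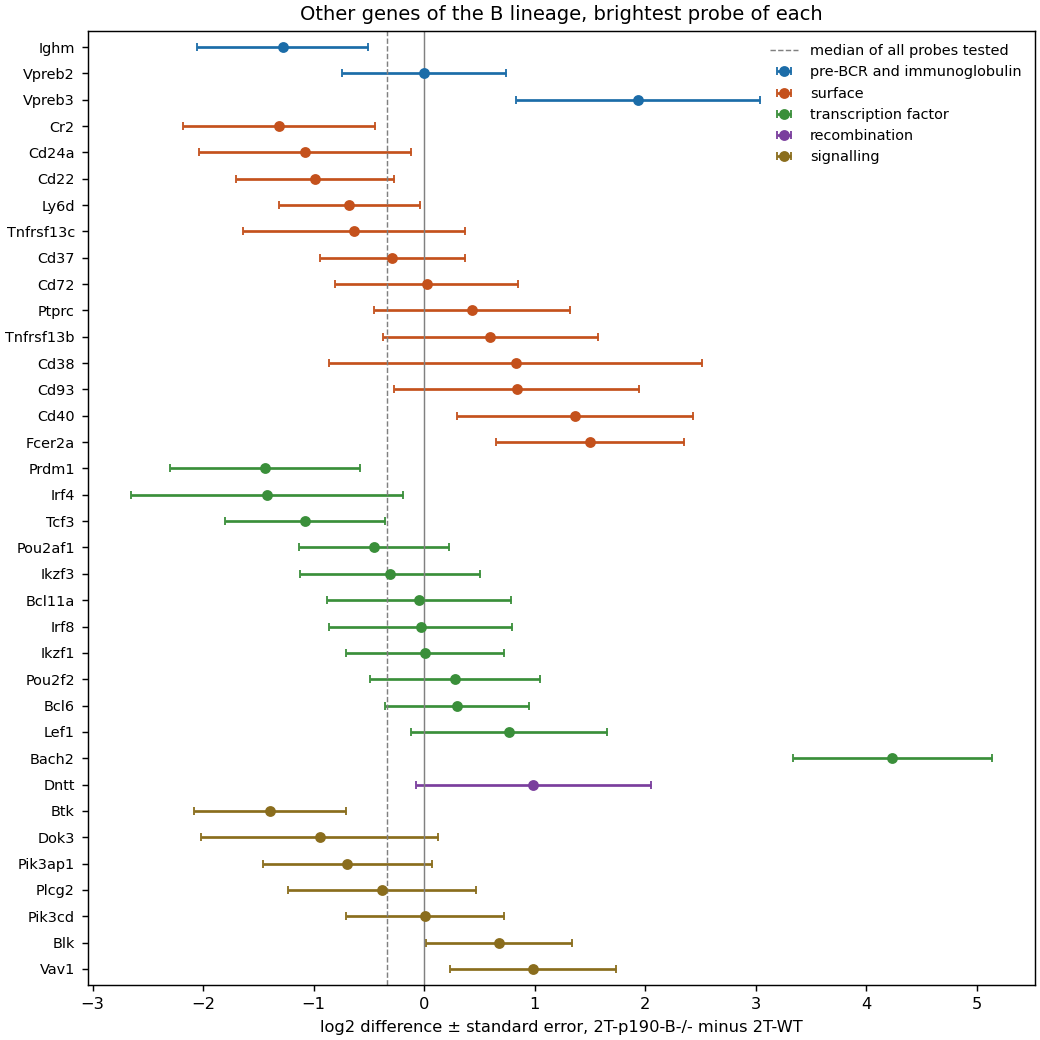
Log2 difference with standard error between 2T-p190-B-/- and 2T-WT for other B lineage genes that were measured, each by its brightest probe and coloured by role. The values lie on both sides of 0, all of them at or above 0 without scaling, with Bach2 at 4.24 the farthest point.

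The sort was read against marker lists. Between 48.4% (2T-WT replicate 1) and 73.1% (2T-p190-B-/- replicate 1) of all probes were well above background on an array, with 50.6% on 2T-WT replicate 3. A listed gene counted as detected by any of its probes, and a probe without a value on an array counted as not detected there. Of 12 stem cell genes, 7 or 8 were detected on each array, but Slamf1, which encodes the CD150 used in the sort, and Procr were well above background on none, and Cd48, whose protein the gate excludes, and Flt3, known as low in HSC, were detected on all 6. Some of the undetected stem cell genes were missing values. Hlf had a value only on 2T-WT replicate 3 (1.72) and 2T-p190-B-/- replicate 2 (1.22), and Meis1 only on 2T-WT replicate 3 (1.92). Both were detected wherever they had a value. Of 14 B lymphocyte markers that are not members, 8 to 10 were detected on each array, with Igj, Fcrla and Spib among those on none. Their summed linear level relative to the 75th percentile was 283, 182 and 627 in 2T-WT against 126, 143 and 200 in 2T-p190-B-/-. Cd22 and Cr2, each by its brighter probe, made up 96.8% of this sum on 2T-WT replicate 3 and at least 86.6% on every array. The dimmer Cr2 probe read -1.03 to 2.56, where the brighter read 5.18 to 8.12. With Cd22 and Cr2 left out the sum was 20.3 on 2T-WT replicate 3 and 13.8 to 19.1 on the others. Before scaling 2T-WT replicate 3 had the lowest sum of the list, 33813 intensity units against 35265 to 50570.

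The scaled sums of 3 other lists were also highest on 2T-WT replicate 3, and each rested mainly on 1 bright gene. For 12 T lymphocyte markers the sum was 145 against 41.1 to 95.3 elsewhere, with 91.99% from Cd4, and without Cd4 that array was the lowest (11.7 against 17.8 to 23.7). For 12 red cell precursor markers it was 987 against 215 to 586, with 99.7% from Ermap, and without Ermap that array was the lowest (3.40 against 5.53 to 7.88). For 9 macrophage and dendritic cell markers it was 1577 against 221 to 549, with 90.2% from Siglech, and without Siglech that array was still the highest (154 against 31.1 to 70.2). Siglech and Csf1r together made up 99.8% of the sum there. With these genes left out that array lay within the range of the others (3.09 against 1.86 to 5.43).

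Before scaling 2T-WT replicate 3 had the lowest sum of the T lymphocyte and red cell lists and lay within the range of the others for the macrophage and dendritic cell list (85050 intensity units against 68397 to 90166). Its scaled sums were within the range of the others for the 12 neutrophil genes (11.6 against 8.01 to 25.3) and the 10 megakaryocyte and platelet genes (22.2 against 14.7 to 51.9). By detection it had 8 of 12 T lymphocyte, 5 of 12 red cell and 5 of 9 macrophage and dendritic cell markers, where the 6 arrays held 8 to 11, 5 to 7 and 5 to 9. The part of B cells or of the array's brightness in the values of the set was not tested, and in RNA from sorted populations fewer cells of a type and less RNA per cell cannot be told apart.

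**Figure D4:**
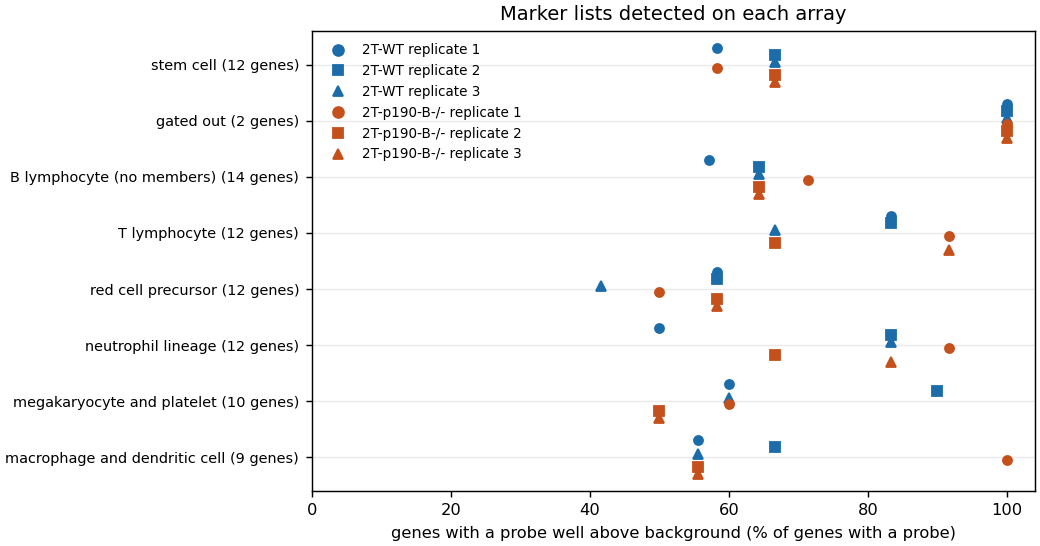
Share of each marker list with a probe well above background on each of the 6 arrays, in percent of the genes that have a probe. Colours mark genotype and shapes the replicate number; the B lymphocyte list, which leaves out the 9 genes described, has 8 to 10 of 14 genes detected on every array, and 2T-WT replicate 3 lies within the spread of the others there.

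The promoters of Cd79a, Igll1 and Vpreb1 are shown because the first pair shared the high 2T-WT array and Vpreb1 was the one gene whose groups did not overlap. That array was not high for this pair alone: on scaled levels it was the highest for 7 of the 10 member probes, Vpreb1 among them. The 250 bases before the start of transcription were taken from a table of RefSeq promoters, build GRCm38.p6, in which 7 of the 9 genes were matched (8 promoters). Cd79b and Ms4a1 were not matched. They were searched on both strands for an E box bound by E proteins (CAGGTG), a core of the EBF site (CCCNNGGG) and the octamer (ATGCAAAT). The E box was in 5 of the 8 promoters against 17.2% of 32851 promoters in all. The EBF core was in 1 of the 8, that of Igll1 (11.8% of all), and the octamer in 1, that of Blnk (1.60%).

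Capitals below mark the matches, with positions counted back from the start. The Cd79a promoter (chr7:24897247-24897496, plus strand) holds an E box at -154. The Igll1 promoter (chr16:16863986-16864235, minus strand) holds an EBF core at -231 and an E box, read from the other strand, at -8. The Vpreb1 promoter (chr16:16869256-16869505, minus strand) holds an E box at -88. A match is a description of the letters and not a bound site.
Cd79a promoter: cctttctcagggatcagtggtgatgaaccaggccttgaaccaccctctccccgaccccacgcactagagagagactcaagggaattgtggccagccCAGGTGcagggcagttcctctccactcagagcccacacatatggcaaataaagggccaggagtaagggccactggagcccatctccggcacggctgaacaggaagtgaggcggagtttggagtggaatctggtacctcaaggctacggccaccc
Igll1 promoter: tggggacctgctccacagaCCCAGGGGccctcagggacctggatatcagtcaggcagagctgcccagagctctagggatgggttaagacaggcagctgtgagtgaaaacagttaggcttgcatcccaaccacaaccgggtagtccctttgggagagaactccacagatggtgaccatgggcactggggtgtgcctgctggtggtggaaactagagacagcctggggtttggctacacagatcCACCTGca
Vpreb1 promoter: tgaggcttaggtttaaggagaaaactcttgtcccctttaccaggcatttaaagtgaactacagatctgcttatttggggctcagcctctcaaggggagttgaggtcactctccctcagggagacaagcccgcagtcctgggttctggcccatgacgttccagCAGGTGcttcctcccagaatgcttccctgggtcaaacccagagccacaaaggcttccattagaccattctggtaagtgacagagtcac

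The mean of the 9 genes was -1.41, -1.57 and 1.17 in 2T-WT against -2.05, -2.05 and -0.997 in 2T-p190-B-/-. Without Cd79a the mean of the other 8 was 0.13 on 2T-WT replicate 3 and -1.88 to -0.92 on the other arrays. Among 13705 named probes of other genes that were above background on every array, the 5 most alike in pattern over the 6 arrays were ENSMUST00000109776 (Pearson's r = 0.997), Ctdsp1 (0.997), P2rx3 (0.996), Gm833 (0.995) and Vps29 (0.995). Without 2T-WT replicate 3 their r was 0.976, 0.969, 0.986, 0.998 and 0.955, and against the mean without Cd79a it was 0.979, 0.977, 0.986, 0.959 and 0.970. These are correlations over 6 arrays that share the scaling of each array, and they were picked as the highest of many.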

How the data were processed

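The authors deposited the scanner output of 6 Agilent arrays, made with Feature Extraction 10.5.1.1 per the file headers. The deposited processed signal is an intensity on a linear scale that the authors' software background corrected and did not scale between arrays. The value table the authors deposited holds this signal over a single divisor for each array (largest deviation 0.00126%) and was used as an alternative. RNA preparation, cDNA amplification and Cy3 labelling were done at Miltenyi, and the amplification can widen differences between low transcripts.

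Control spots were dropped, as were 296 to 509 outlier spots an array. Levels are the log2 ratio of a signal to the 75th percentile of its array, with repeated spots averaged. The fit (limma 3.58.1, R 4.3.3, no covariates) took probes that 3 or more of the 6 arrays detected well above background, was adjusted by Benjamini-Hochberg over 25160 probes and was tested on simulated data. The brightest probe stands for a gene, and gene names are those of the array design.

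The members, the wider list and the tests were chosen with earlier results of these data known. All members are named, with those of the wider list above background on all 6 arrays and Rag2, Dntt, Il7r, Vpreb2 and Vpreb3, except for genes that are not reported here. The likeness rule takes the 5 highest Pearson correlations. Alternatives were other scaling, normexp (offset 50), other filters, blocks for slide or replicate number, an intensity trend, the methods' t-test, the mean over probes and each array left out. The number of arrays limits the precision.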

Additional observations from a re-analysis of the deposited data

How the results depend on the processing

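Counts after adjustment were 0 over all probes under every setting run. At an unadjusted p below 0.05 the count of 1654 probes became 3608 with normexp, 3384 without scaling (a setting chosen after seeing the data), 995 when a probe had to be detected on all 6 arrays, and 1068 to 2443 with 1 array left out. The replicate block gave 1871. Deviations of equal numbers correlated at 0.00896, 0.0161 and 0.0863, and 2 of 3 2T-WT arrays correlated best with their own number. With 3 arrays a group, these values cannot settle whether equal numbers were paired. With the replicate block the median of the B lineage genes was -1.43, unchanged by design. Each number holds 1 array of each genotype, so the block cannot alter the difference of a probe with a value on every array. That median was 0.021 without scaling, -0.41 when detection on all 6 arrays was asked for, and -1.75 to -0.43 with 1 array left out. The count of genes lower, 7 of 9, was 3 of 9 without scaling and 3 of 5 when detection on all 6 arrays was asked for.

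The median of the wider list (-0.030) had no stable sign: 0.057 with quantile normalization, 0.24 with the percentile over probes detected on all arrays, 0.092 with the authors' values, 1.42 without scaling, -0.26 with normexp, -0.30 without a filter, -0.37 with slide as a block, and -0.30 to 0.082 with 1 array left out. Relative to the median of all probes under the same setting, the list lay above it in every setting compared this way. It ran from 0.066 without 2T-WT replicate 1 to 0.42 without 2T-p190-B-/- replicate 1, and was 0.30 without scaling. The 19 lower genes of the list became 0 without scaling, where 13.7% of all probes were lower, and 30 without a filter. Of single probes, Cd79a ranged from -6.38 to 0.26 with 1 array left out (0.26 without 2T-WT replicate 3), while Ms4a1 turned to 0.021, Ebf1 to 0.016, the second Pax5 probe to 1.04 and Rag1 to 0.57 without scaling, and with normexp the second Pax5 probe to 0.16 and Blnk to -0.18. Non-overlapping probes were Vpreb1 alone with quantile normalization, none with the percentile over probes detected on all arrays, Vpreb1 and Ms4a1 with normexp and the authors' values, and the first Pax5 probe, higher, without scaling. The causes were not tested.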
